A study of Danio rerio with 9 samples.

Results

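The transcriptome of *cep290ex25* morphants was compared with that of wild-type embryos across all genes read at a mean of at least 2 RPKM over the 6 libraries of these groups, to ask which genes, and which tissues they mark, differed after acute knockdown of *cep290*. RPKM is the reads on a gene relative to its length and to the size of the library. This level was reached by 14580 of the 33737 genes in the table, or 43.2%, and all of them entered the test. Morphants received a morpholino directed at the splice donor of *cep290* exon 25. Wild-type embryos are labelled only as the TuAB strain, and the labels name neither an injection nor a control morpholino for them, so effects of injection and effects of losing Cep290 cannot be told apart in these libraries. Maternal zygotic mutants with a 10-bp deletion in exon 16 (*MZcep290*-/-) are used here only to set morphant values beside those of a genetic loss. All embryos were whole, of the TuAB strain and at 72 hpf, and each of the 3 libraries per group was made from a pool of 30. The study calls the wild-type embryos siblings and used siblings where it could, but the clutch behind each pool is not given, so p-values measure the spread between these pools. The third wild-type library carries a name derived from that of the second, and the labels number it as replicate 3 without saying whether its embryos were a separate pool.

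Cep290 is a large protein of the ciliary transition zone, the gate between the cell body and the cilium. The outer segment of a photoreceptor is a modified cilium whose membranes carry opsin and the phototransduction enzymes, and these reach it through that gate. In zebrafish, many morpholinos are known to raise transcripts of cell stress and apoptosis. In RNA from whole embryos, fewer cells of a type and less RNA per cell cannot be told apart.

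Reads on genes numbered between 9050375 and 16150393 in morphant libraries and between 5652757 and 7674248 in wild-type libraries, and on a 2-kb gene 3 reads were worth 0.0871 to 0.185 RPKM in morphants and 0.265 to 0.309 RPKM in wild type. The 50 most-read genes took 27.8% to 34% of reads in morphants and 40.8% to 41.9% in wild type. Genes with a read numbered 20258 to 22081 in morphant libraries and 23139 to 23773 in wild-type libraries, although these were less deep. The part of this difference in the falls was not tested. Replicates were closer in morphants, with Pearson's r across genes of 0.943 to 0.960, than in wild type, with 0.706 to 0.800 (a measure across genes, which are not replicates of each other). Replicates 2 and 3 of wild type differed more (0.800) than any 2 morphant libraries did and were counted as separate, and each is also left out in turn below. Wild-type replicate 3 was closer to the morphant libraries (0.825 to 0.828) than to the other wild-type ones (0.752 and 0.800). Wild-type replicates 1 and 2 were also closer to morphants (0.707 to 0.715 and 0.760 to 0.770) than to each other (0.706), though closest to replicate 3. The median SD of a gene between replicates was 0.21 on the log2 scale in morphants and 0.35 in wild type. Low wild-type values are therefore the least certain numbers of this comparison, and both the depth and the share of the most-read genes differed with the group. Their part in the results was not tested, beyond the other scalings given beside them.

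Of the 14580 genes, 1224 rose in morphants (8.4%) and 498 fell (3.42%), at an adjusted p under 0.05 by limma and a fold change above 2. These shares are the background against which every list below is read. Values of the groups did not overlap for 4102 genes that were higher (28.1%) and 1947 that were lower (13.4%) in morphants, whatever their test, and an exact two-sided permutation test on 3 against 3 libraries gives such a gene p = 0.10, the smallest it allows. Among the called genes, more falls than rises were very large, with 102 genes that fell and 39 that rose over 8-fold. The balance of directions differed with the level, but the order turned with the normalization. Between 2 and 4 RPKM 136 genes rose and 245 fell (168 and 112 after loess normalization), between 4 and 8 RPKM 426 rose and 110 fell (176 and 203 after loess), and at 128 RPKM or more 15 rose and 36 fell (26 and 17 after loess). The median log2 fold change over all genes was 0.18, and rises made up 71.1% of calls. With median-of-ratios scaling of the RPKM values the median was −0.01 and 753 genes rose and 734 fell (50.6% rises). With read totals as library sizes 2453 rose and 291 fell, and with scaling on genes of 5 to 50 RPKM 550 rose and 1002 fell. Between 690 and 726 genes rose and between 519 and 548 fell after quantile or loess normalization. Without morphant replicate 2, 622 genes rose and 248 fell. The counts without morphant replicate 1 were 775 and 289, and 316 genes fell without wild-type replicate 2. Genes called under every one of these scalings and every omission of a library numbered 339 rises and 132 falls.

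**Figure D1:**
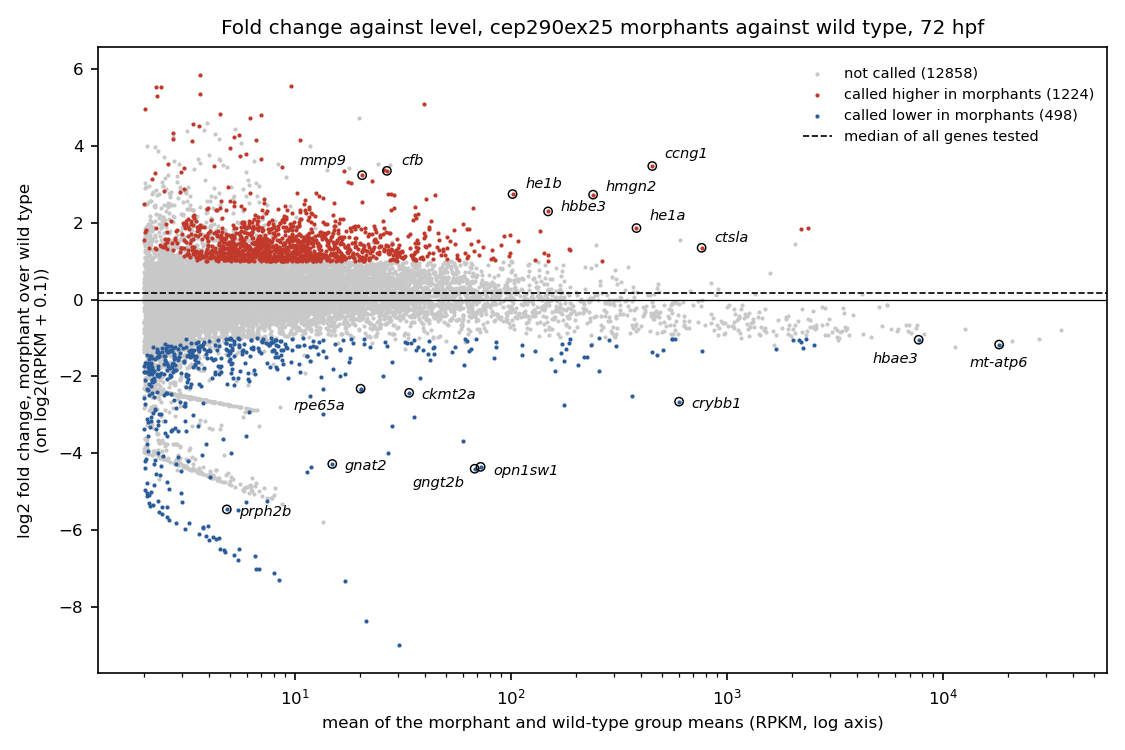
Each point is 1 of the 14580 genes, with the mean of both group means (RPKM, log axis) on the x axis and the log2 fold change of morphants over wild type on the y axis, in red for the 1224 genes that rose, blue for the 498 that fell and grey for the rest. The labelled photoreceptor genes and the labelled lens gene *crybb1* lie far below 0, and *ccng1* and the hatching gland genes *he1a* and *he1b* lie above it. The dashed line is the median of all genes (0.18).

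The targeted gene itself was read at more, not fewer, RPKM in morphants. *cep290* (ENSDARG00000062727) had 5.45, 6.15 and 3.36 RPKM in morphants, against 2.6, 1.62 and 1.72 RPKM in wild type (log2 fold change 1.28, SE 0.35, adjusted p = 0.0375), with no overlap, and was called in 11 of 20 alternatives. A splice-blocking morpholino changes how a transcript is joined, which reads summed over a gene do not measure, so this is no check of the knockdown. The call was lost without wild-type replicate 2 or 3 or morphant replicate 1 or 2, with adjusted p between 0.046 and 0.162 over the libraries left out in turn. *arl3*, the GTPase that releases lipidated cargo inside cilia, had 16.9, 15.4 and 15.4 RPKM in morphants, against 5.77, 2.75 and 6.95 RPKM in wild type (log2 fold change 1.7, SE 0.32, adjusted p = 0.00957), and was called in all 21 alternatives tried. *arl13b*, the ciliary GTPase that activates Arl3, had 4.54, 5.17 and 3.24 RPKM in morphants and 2.29, 1.79 and 2.04 RPKM in wild type (log2 fold change 1.03, SE 0.31, adjusted p = 0.0518), just short of the threshold. *unc119b*, a carrier of myristoylated cargo, had 5.65, 5.69 and 4.76 RPKM in morphants and 5.34, 5.05 and 4.75 RPKM in wild type (log2 fold change 0.08, SE 0.21, adjusted p = 0.803), and its values overlapped. The list for the machinery that carries lipidated proteins into cilia includes *cep290* and had 14 genes tested. Of these 2 rose, *arl3* and *cep290* itself (14.3%, against 8.4% of all genes), and none fell. Higher without overlap were 7, against 28.1% of all genes, and the median log2 fold change was 0.85. With read totals 6 rose, and only *arl3* was called without wild-type replicate 2 or morphant replicate 1 or 2.

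Photoreceptor genes had the lowest median fold change of the 37 tissue and pathway lists. Of 76 genes of the list found in the table, 32 were read at 2 RPKM or more, and 18 of these fell and none rose in morphants, against 3.42% and 8.4% of all genes. This level is a mean over both groups, and genes such as *prph2b* and *pde6c* reached it only through wild type. The part of this filter in the share was not tested. Without a filter 17 genes of the list fell and none rose, when 1974 of 27282 genes fell and 1214 rose. The median log2 fold change of the list was −2.39, and between −2.7 and −2.15 under the other scalings. Their summed level was 139 to 162 RPKM in morphants and 775 to 937 RPKM in wild type. Between 16 and 19 genes fell when any 1 library was left out.

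The visual pigments come first in the light response, and all 4 opsin genes tested, of cones and of rods, fell. The ultraviolet cone opsin *opn1sw1* (ENSDARG00000045677) had 7.49, 11 and 3.49 RPKM in morphants, against 139.5, 119.8 and 153 RPKM in wild type, an 18.8-fold lower mean (log2 fold change −4.35, SE 0.36, adjusted p = 0.000414). The blue cone opsin *opn1sw2* had 2.03, 4.12 and 3.6 RPKM in morphants and 56.7, 47.2 and 48.8 RPKM in wild type (−3.98, adjusted p = 0.000148). The red cone opsin *opn1lw2* had 5.46, 3.99 and 5.68 RPKM in morphants and 44.1, 39 and 71 RPKM in wild type (−3.29, adjusted p = 0.000267). In each of these the highest morphant pool lay several fold under the lowest wild-type pool. Rod opsin, *rho*, had 6.4, 8.89 and 11.13 RPKM in morphants and 117, 103 and 114 RPKM in wild type (−3.68, adjusted p = 0.000107), so the rod pigment fell with those of cones.

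The enzymes that carry the signal on from the pigments fell too, several of those of cones as far as the opsins. The cone transducin α subunit *gnat2* (ENSDARG00000042529) had 0.895, 1.91 and 1.48 RPKM in morphants, against 25.9, 28 and 31.3 RPKM in wild type (log2 fold change −4.28, SE 0.28, adjusted p = 0.00015), a 19.9-fold lower mean. The transducin β and γ subunits of cones behaved alike. *gnb3b* had 1.5, 0.618 and 0.704 RPKM in morphants and 19.1, 24.2 and 22 RPKM in wild type (log2 fold change −4.48, SE 0.34, adjusted p = 0.000267), and *gngt2b* had 7.31, 4.47 and 6.44 RPKM in morphants and 115, 110.4 and 165 RPKM in wild type (log2 fold change −4.4, SE 0.22, adjusted p = 0.000101). *pde6c*, the catalytic subunit of the cone phosphodiesterase, had 0.266, 0.206 and 0.247 RPKM in morphants and 6.95, 5.83 and 5.73 RPKM in wild type (log2 fold change −4.2, SE 0.48, adjusted p = 0.00137). Its inhibitory subunit *pde6h* (−3.63), the paralogous γ subunit *gngt2a* (−2.5) and phosducin b, *pdcb* (−3.54), also fell. The rod transducin *gnat1* fell least of the 18, at 3.25, 1.66 and 1.51 RPKM in morphants and 5.78, 3.98 and 5.33 RPKM in wild type (log2 fold change −1.26, SE 0.37, adjusted p = 0.0439).

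Genes that shut off the response, or that shape the outer segment, were lower too. *grk7a*, the cone opsin kinase, had 0.0546, 0.585 and 0.0732 RPKM in morphants and 5.67, 4.86 and 6.6 RPKM in wild type (log2 fold change −4.45, SE 0.73, adjusted p = 0.00555). Cone arrestin, *arr3a*, had 7.08, 10 and 5.96 RPKM in morphants and 59.8, 63.6 and 67.8 RPKM in wild type (−3.07, adjusted p = 0.000139). *prph2b* (ENSDARG00000014840), a peripherin of the disc rim, had the largest fall of the list, with 0.59, 0.0496 and 0 RPKM in morphants, against 9.67, 9.02 and 9.74 RPKM in wild type (log2 fold change −5.46, SE 0.76, adjusted p = 0.00293). Its paralog *prph2a* (−3.29), the related *rom1b* (−2.76) and the retinoschisin gene *rs1a* (−2.04) completed the 18 genes that fell. For all 18 the highest morphant value lay below the lowest wild-type value.

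Not every gene of these cells passed the test. The transcription factors of the list, singled out here after their values were seen, were *crx*, *nr2e3*, *six7* and *thrb*. *crx* had 8.21, 8.77 and 8.16 RPKM in morphants and 9.09, 14.2 and 22.3 RPKM in wild type (log2 fold change −0.76, adjusted p = 0.106). *six7* had 3.12, 3.3 and 3.28 RPKM in morphants and 6.07, 4.2 and 6.12 RPKM in wild type (−0.72, adjusted p = 0.0813). The corresponding values were −0.46 for *nr2e3* (adjusted p = 0.17) and 0.06 for *thrb* (adjusted p = 0.921), and the groups overlapped for *thrb* but not for the other 3. The rod arrestin *sagb* had 18.9, 20.3 and 16 RPKM in morphants and 16.4, 23.8 and 17.7 RPKM in wild type (−0.06, adjusted p = 0.845), with overlapping values.

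The pigment epithelium recycles retinal for the photoreceptors, and 7 of the 20 tested genes of that list fell while none rose (median log2 fold change −0.41, and lower than 0 under every scaling). *rpe65a*, the isomerase of the visual cycle, had 7.24, 4.5 and 8.85 RPKM in morphants, against 32.7, 30.6 and 37.1 RPKM in wild type (log2 fold change −2.32, SE 0.24, adjusted p = 0.00105). The interphotoreceptor retinoid-binding protein gene *irbp* had 0.784, 1.19 and 1.05 RPKM in morphants and 3.07, 5.15 and 4.82 RPKM in wild type (−1.99, adjusted p = 0.0119). *rgra* and *rgrb*, which encode retinal G protein-coupled receptors, had log2 fold changes of −1.5 and −1.24, and *LRAT*, *rlbp1b* and *rlbp1a*, all of the retinoid cycle, of −1.68, −1.5 and −1.07. Only 4 genes of the list fell without wild-type replicate 2, and as many with read totals as library sizes.

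Crystallins, the refractive proteins of the lens fibre, were another eye group with large falls, although the lens list as a whole was mixed. Of its 53 genes, 9 fell and 2 rose, and its median of −0.22 turned to 0.07 with read totals. *crybb1* (ENSDARG00000068507) had 189, 136 and 169 RPKM in morphants, against 882, 1066 and 1159.5 RPKM in wild type (log2 fold change −2.66, SE 0.16, adjusted p = 0.000137). Its paralog *crybb1l1* had 114, 115 and 96.9 RPKM in morphants and 514, 648 and 689 RPKM in wild type (log2 fold change −2.5, SE 0.15, adjusted p = 0.000117). The βA crystallin *cryba1b* had 118, 117 and 97.5 RPKM in morphants and 353, 405 and 449 RPKM in wild type (−1.86, adjusted p = 0.000267). In all 3 the highest morphant pool lay below the lowest wild-type pool. The furthest fall was in *CRYGN (2 of 3)*, a γN crystallin entry now named *crybgx*, with 0.514, 1.7 and 1.03 RPKM in morphants and 16.7, 23.5 and 27.9 RPKM in wild type (log2 fold change −4.37, SE 0.40, adjusted p = 0.00068). The aquaporin *mipa* (1.17) and the crystallin *crygmxl1* (1.8) rose. Crystallins have near-identical copies that can share reads, so the split between copies is less certain than their fall.

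**Figure D2:**
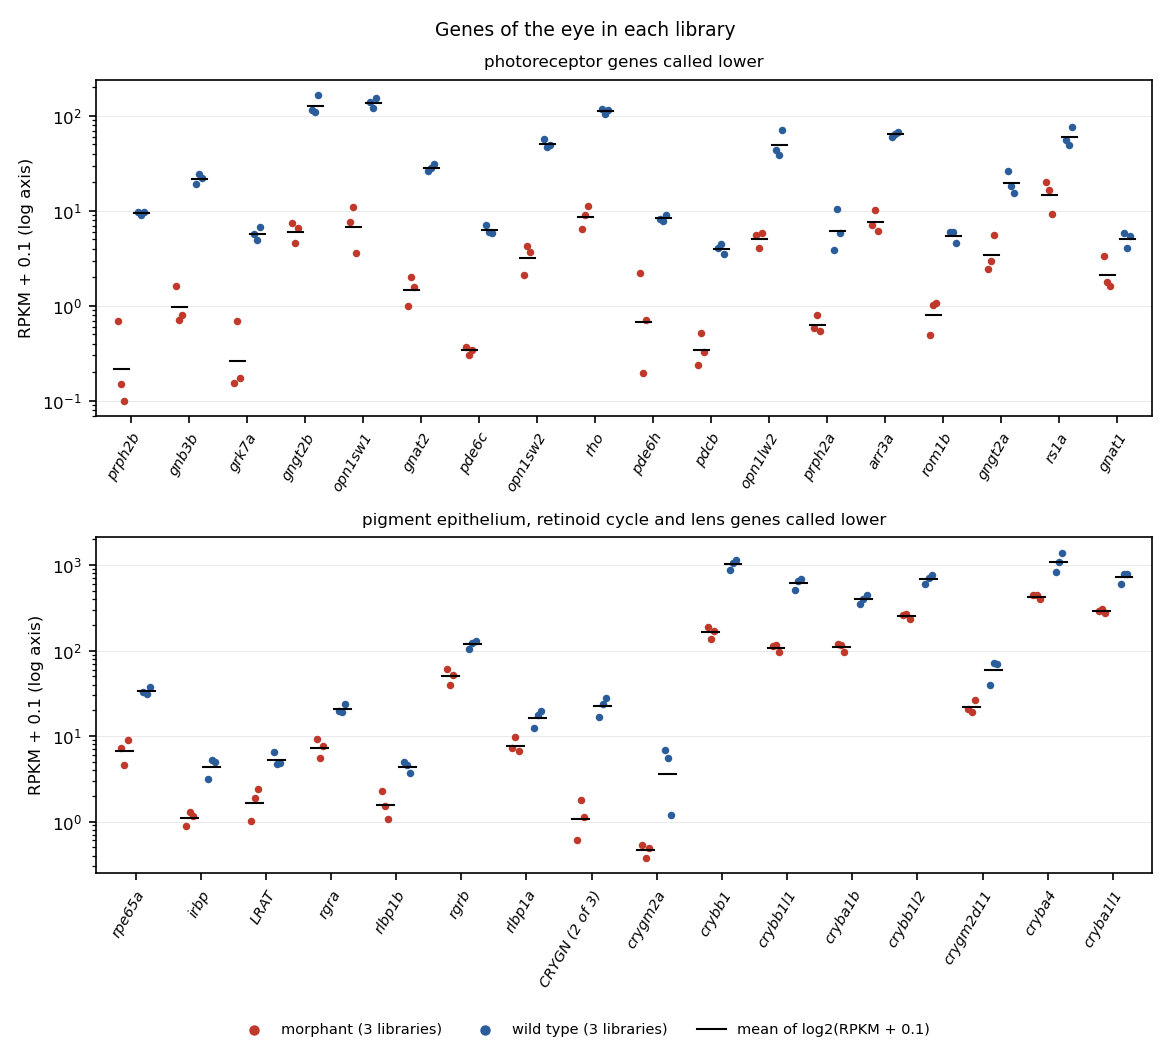
RPKM + 0.1 (log axis) in each of 3 morphant libraries (red, left of each pair) and 3 wild-type libraries (blue), with a bar at the mean of log2(RPKM + 0.1), for the 18 photoreceptor genes (top) and the pigment epithelium, retinoid cycle and lens genes (bottom) that fell. No morphant value reaches the wild-type values of the same gene, and *prph2b*, *grk7a* and *pde6c* are below 1 RPKM in all 3 morphant libraries.

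The rise with the smallest adjusted p of all genes belonged to a gene of the response to DNA damage. *ccng1* (ENSDARG00000076667), which encodes cyclin G1, had 782, 872 and 829.5 RPKM in morphants, against 66.5, 77.6 and 79.6 RPKM in wild type (log2 fold change 3.48, SE 0.12, adjusted p = 1.93e-05), an 11.11-fold higher mean. Of the 47 tested genes of the growth arrest and apoptosis list, 17 rose and none fell, against 8.4% and 3.42% of all genes. The list's median was 0.80, or 0.75 with *pmaip1*, whose wild-type libraries had no read, at its bound. With median-of-ratios, quantile or 5 to 50 RPKM scaling 11 of its genes rose, and 13 to 16 rose when a library was left out.

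Other members of the list fell into effectors and regulators. *nupr1*, a stress-induced nuclear protein, had 37.5, 53.1 and 50.9 RPKM in morphants and 6.71, 7.5 and 6.29 RPKM in wild type (log2 fold change 2.76, SE 0.17, adjusted p = 0.000139). The TNF receptor gene *tnfrsf1a* had 8.04, 11.2 and 10.1 RPKM in morphants and 1.89, 2.13 and 1.49 RPKM in wild type (log2 fold change 2.35, SE 0.26, adjusted p = 0.00127), and *perp*, an effector of apoptosis, had 63.6, 73.1 and 68.8 RPKM in morphants and 13.7, 16.5 and 20.1 RPKM in wild type (2.04, adjusted p = 0.000324). *mdm2*, a ubiquitin ligase, had 46.7, 48.8 and 47 RPKM in morphants and 21.9, 23.4 and 18.2 RPKM in wild type (1.17, adjusted p = 0.00135). Groups were apart in all 4, with wild-type values close together. The cell cycle inhibitor *cdkn1a* had 2.76, 5.93 and 6.6 RPKM in morphants and 1.86, 0.741 and 0.894 RPKM in wild type (2.05, adjusted p = 0.0237). Further rises were *phlda3* (2.03), *rrm2b* (1.71), *casp8* (1.65), *mcl1b* (1.62), *plk3* (1.52), *si:ch211-160e1.5* (1.47), *phlda2* (1.13), *gadd45ba* (1.07) and the pro-apoptotic *baxa* (1.04). *pmaip1*, the BH3-only gene also called Noxa, had 0, 7.26 and 9.08 RPKM in morphants and 0 in every wild-type library, and did not pass (adjusted p = 0.172).

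Genes of the innate response and of wounds also rose, with 13 of 25 tested genes higher and 1 lower (median 1.24, above 0 under every scaling). With any 1 morphant library left out or with 5 to 50 RPKM scaling, 8 rose. *mmp9* (ENSDARG00000042816), a matrix metalloproteinase of wounded tissue, had 39.1, 34.4 and 37.9 RPKM in morphants, against 3.76, 3.81 and 3.97 RPKM in wild type (log2 fold change 3.24, SE 0.15, adjusted p = 9.01e-05), a 9.66-fold higher mean with little spread in either group. The collagenase *mmp13a* had 21.5, 22.8 and 24.4 RPKM in morphants and 9.64, 4.76 and 6.94 RPKM in wild type (1.73, adjusted p = 0.00333). *isg20*, an exonuclease induced by interferon, had 26, 29.6 and 22.1 RPKM in morphants and 4.09, 3.4 and 6.21 RPKM in wild type (log2 fold change 2.52, SE 0.24, adjusted p = 0.000774). Feedback regulators of cytokine signals moved the same way, *socs3b* by 2.02, *socs3a* by 1.42 and *nfkbiaa* by 1.71 on the log2 scale, as did the AP-1 genes *junba* (1.96) and *junbb* (1.72). Complement *c3a* had 201, 188 and 209.5 RPKM in morphants and 75.6, 87.4 and 94.3 RPKM in wild type (1.22, adjusted p = 0.000811), and *stat1a* (1.23) and *irf9* (1.01) rose by smaller steps. The cytokine genes *il1b* (3.32) and *cxcl-c1c* (5.57) had wild-type libraries at 0, and each lost its call in 5 of the 6 omissions of a library, at adjusted p up to 0.139 without morphant replicate 2 and 0.137 without wild-type replicate 2. The lower gene was *lgals3bpb* (−2.05). Of the 31 tested leukocyte markers, 5 rose and 1 fell (median 0.35), with 3 rises after loess or 5 to 50 RPKM scaling and 9 with read totals. The rises include *mmp9*, *mmp13a* and *il1b*, already given above, and the fall was in *cpa5*, which is also on the exocrine pancreas list. These calls are therefore not separate from those of the other lists. The summed level of the markers was 860 to 916 RPKM in morphants and 803 to 976 RPKM in wild type.

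Among 42 genes of endoplasmic reticulum stress 12 rose and 1, the pancreatic *pdia2*, fell, a call lost after loess normalization and without any 1 wild-type library or morphant replicate 1. *vimp*, a selenoprotein of the degradation machinery, had 15.7, 19.9 and 15.8 RPKM in morphants and 4.71, 4.18 and 3.06 RPKM in wild type (log2 fold change 2.09, SE 0.22, adjusted p = 0.00103). *manf*, a secreted factor of the unfolded protein response, had 16.2, 19.3 and 14.1 RPKM in morphants and 3.91, 6.16 and 6.28 RPKM in wild type (1.61, adjusted p = 0.00368), and *ppp1r15a*, the phosphatase subunit that restores translation, rose by 1.66. The chaperone *hspa5* (0.21) and the factor *xbp1* (0.03) were not called. After loess, quantile or 5 to 50 RPKM scaling 4 genes of this list rose, and with median-of-ratios scaling 7. The collagen chaperones stood out among 58 heat shock genes, of which 8 rose and none fell (5 rose without morphant replicate 2). *serpinh1b* had 48.4, 51.7 and 48.9 RPKM in morphants and 6.46, 9.98 and 6.45 RPKM in wild type (log2 fold change 2.72, SE 0.19, adjusted p = 0.000212), and *serpinh1a* had 25.1, 24.2 and 20.5 RPKM in morphants and 3.5, 3.71 and 3.66 RPKM in wild type (2.64, adjusted p = 0.000139).

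**Figure D3:**
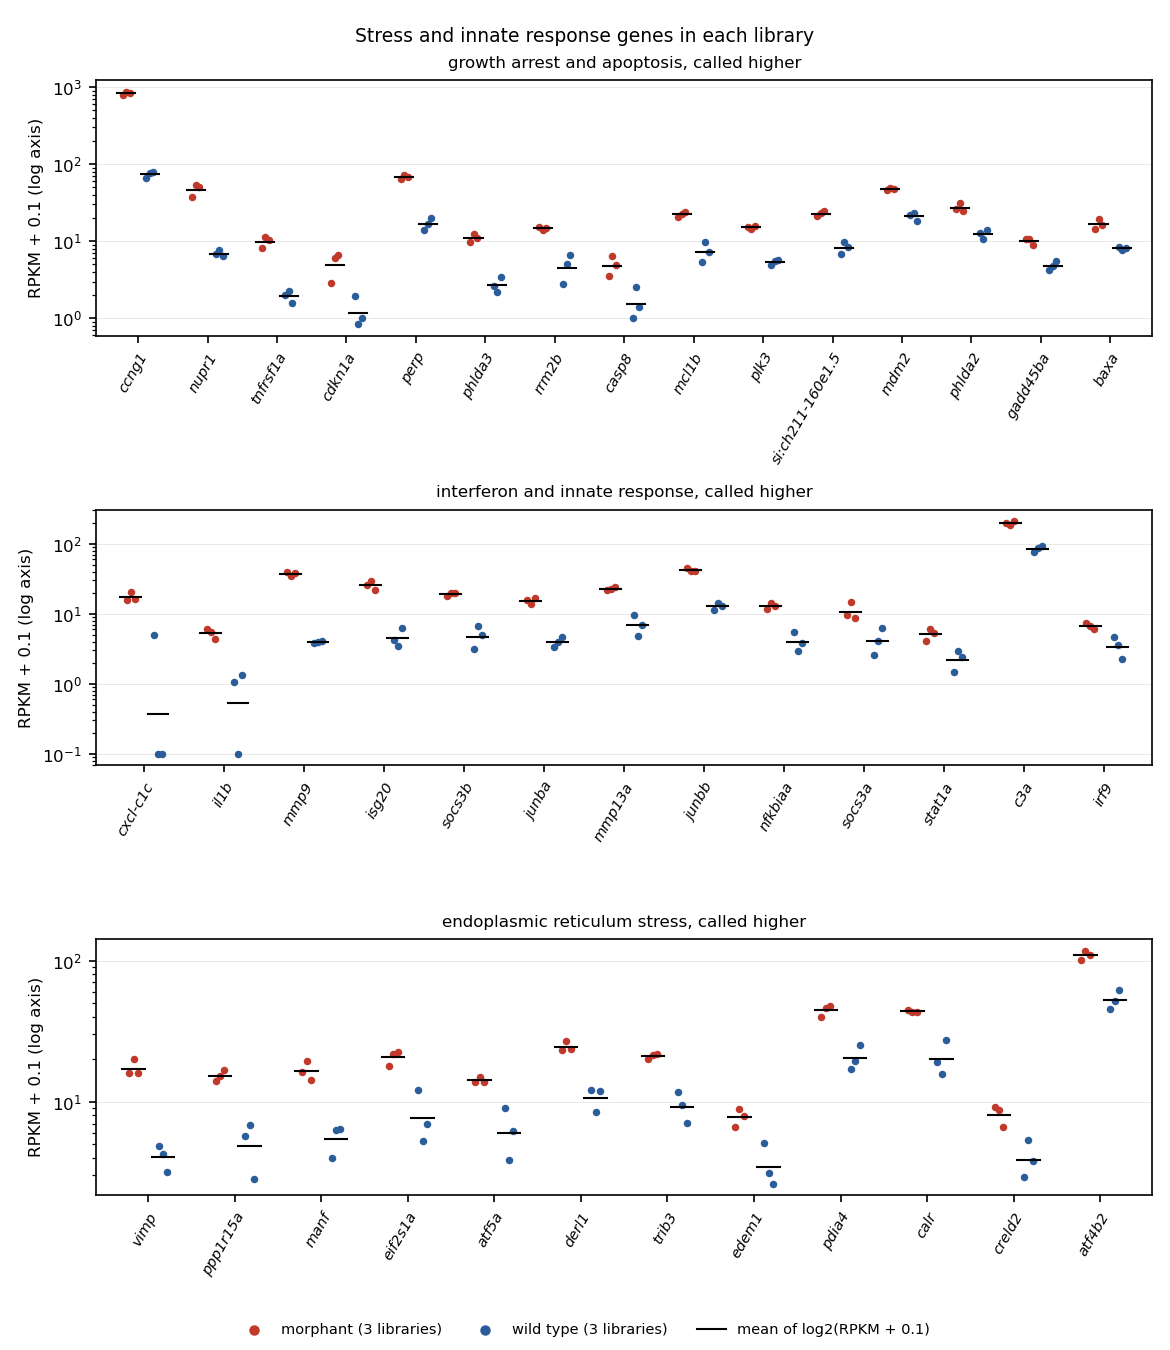
RPKM + 0.1 (log axis) in 3 morphant libraries (red, left of each pair) and 3 wild-type libraries (blue), with a bar at the mean of log2(RPKM + 0.1), for the genes that rose in the lists of growth arrest and apoptosis (15 of 17 plotted), the innate response (13) and endoplasmic reticulum stress (12). *ccng1*, *nupr1*, *mmp9* and *isg20* are set widely apart from wild type, while *il1b* and *cxcl-c1c* have wild-type points at 0.1, where no read was found.

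The hatching gland secretes the enzymes that soften the chorion, and zebrafish normally hatch at around this age. Its enzymes were among the largest rises in level. The hatching enzyme *he1b* (ENSDARG00000019122) had 154, 171 and 208 RPKM in morphants, against 25.7, 25.9 and 26.9 RPKM in wild type (log2 fold change 2.75, SE 0.13, adjusted p = 0.000101), and *he1a* had 558, 563 and 668 RPKM in morphants and 126, 177 and 197 RPKM in wild type (log2 fold change 1.86, SE 0.18, adjusted p = 0.000772). The gland's cathepsin *ctslb* has 2 entries in the table. The more abundant one had 68.1, 79.1 and 84.6 RPKM in morphants and 8.43, 12.1 and 15.3 RPKM in wild type (2.72, adjusted p = 0.000325) and the other 10.4, 14.3 and 12.6 RPKM in morphants and 2.38, 2.12 and 1.4 RPKM in wild type (2.62, adjusted p = 0.000967). Each pair of hatching enzymes and of *ctslb* entries can share reads. *ctsla*, a cathepsin not limited to this gland, had 1089, 987 and 1208 RPKM in morphants and 384, 401 and 511 RPKM in wild type (1.35, adjusted p = 0.00148). Of 15 tested genes on the list *he1a*, *he1b* and both *ctslb* entries rose and 1, *ASTL (10 of 10)*, fell (−1.9), a call lost without morphant replicate 1 or 2. The list's median, 0.17, was that of all genes (0.18), so the list as a whole did not stand apart.

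Digestive organs gave changes in both directions. Of 70 liver genes 7 rose (10%) and 10 fell (14.3%), against 8.4% and 3.42% of all genes. Complement factor B, *cfb* (ENSDARG00000055278), had 42.4, 55 and 48.7 RPKM in morphants, against 5.08, 3.76 and 5.28 RPKM in wild type (log2 fold change 3.35, SE 0.18, adjusted p = 0.000107). Haptoglobin *hp* (2.55) and fibrinogen *fgg* (1.84) were also higher. Hemopexin, *hpx*, had 0.372, 0.326 and 0.582 RPKM in morphants and 4.71, 4.79 and 5.99 RPKM in wild type (log2 fold change −3.34, SE 0.46, adjusted p = 0.00277). The liver fatty acid-binding protein gene *fabp10a* had 4.65, 8.8 and 6.84 RPKM in morphants and 24.5, 24.4 and 20.7 RPKM in wild type (−1.81, adjusted p = 0.0023), and urate oxidase, *uox*, fell as well (−2.02). With read totals 11 liver genes rose. The number of liver genes that fell was 5 without wild-type replicate 2 or 3, 16 with median-of-ratios and 18 with 5 to 50 RPKM scaling. In the intestine 3 of 25 genes fell and 2 rose, with 1 rise when any library was left out, none with median-of-ratios or 5 to 50 RPKM scaling and 5 with read totals. Villin, *vil1*, of the brush border had 3.05, 1.89 and 2.14 RPKM in morphants and 7.92, 6.86 and 11.7 RPKM in wild type (−1.85, adjusted p = 0.00551).

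Only 8 exocrine pancreas genes reached 2 RPKM, of 33 found, and 5 of the 8 fell and none rose (median −1.39). Wild-type values can carry such a gene over this level, and the part of the filter in the share was not tested. Carboxypeptidase *cpa5* had 3.23, 3.81 and 5.71 RPKM in morphants and 14.1, 12.4 and 14 RPKM in wild type (log2 fold change −1.68, SE 0.24, adjusted p = 0.00331), and trypsin, *try*, had 4.92, 8.55 and 4.77 RPKM in morphants and 14.2, 21.5 and 14.6 RPKM in wild type (−1.48, adjusted p = 0.00905). The call of *try* was lost without wild-type replicate 2 (adjusted p = 0.0596), and 2 genes of the list fell without any 1 wild-type library or without morphant replicate 1, and 3 without morphant replicate 2 or 3, after loess normalization or with read totals. None of 21 genes of the endocrine pancreas was called (1 fell after loess or 5 to 50 RPKM scaling), and insulin, *ins*, had 41.1, 33.4 and 40.7 RPKM in morphants and 59.4, 40 and 42.9 RPKM in wild type (−0.29, adjusted p = 0.267).

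Muscle, heart and blood showed single genes with large changes, on lists that had calls in both directions. In skeletal muscle 6 of 108 genes rose (5.56%) and 13 fell (12%), against 8.4% and 3.42% of all genes. With no overlap 19 were higher and 50 lower, against 28.1% and 13.4% of all genes. The list's median of −0.27 turned to 0.02 with read totals. *tcap*, the titin cap of the Z disc, had 21, 20.3 and 24.3 RPKM in morphants, against 3.29, 2.59 and 3.42 RPKM in wild type (log2 fold change 2.78, SE 0.19, adjusted p = 0.00019). The mitochondrial creatine kinase *ckmt2a* went the other way, with 11.4, 10.6 and 9.65 RPKM in morphants and 63.3, 53.4 and 54.6 RPKM in wild type (log2 fold change −2.42, SE 0.14, adjusted p = 0.000107). The myosin-binding proteins *mybpc1* (−1.95) and *mybpha* (−1.62) fell with it. The count of muscle genes that fell was 8 without wild-type replicate 2, 7 without wild-type replicate 3, 5 without morphant replicate 2 and 4 with read totals, and 21 and 29 with median-of-ratios and 5 to 50 RPKM scaling. Natriuretic peptide *nppa*, from heart, had 8.29, 11.8 and 10.6 RPKM in morphants and 0.888, 1.39 and 0 RPKM in wild type (log2 fold change 4.27, SE 0.91, adjusted p = 0.0152), a call lost without wild-type replicate 1 or any 1 morphant library (adjusted p up to 0.0718).

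Globins changed in composition. Of the embryonic β-globins *hbbe3* (ENSDARG00000038147) had 232, 228 and 269.5 RPKM in morphants, against 25.6, 61.3 and 76.2 RPKM in wild type (log2 fold change 2.29, SE 0.35, adjusted p = 0.00445), whereas *hbbe2* had 94.3, 74.3 and 92 RPKM in morphants and 233, 268 and 294 RPKM in wild type (log2 fold change −1.61, SE 0.14, adjusted p = 0.000538). The more abundant *hbbe1.1* had 992, 912 and 1018 RPKM in morphants and 1941, 2683 and 2539 RPKM in wild type (−1.28, adjusted p = 0.00267), and lost its call with read totals, quantile and loess normalization. The wild-type values of *hbbe3* spread about 3-fold, and all 3 stayed below the morphant ones. The ammonium channel *rhag* of the red cell membrane had 34.2, 37 and 31.5 RPKM in morphants and 8.4, 13 and 16.3 RPKM in wild type (1.49, adjusted p = 0.00478). Across the erythrocyte list 7 of 37 genes rose (18.9%) and 6 fell (16.2%), against 8.4% and 3.42% of all genes. These counts were 2 and 2 after quantile or loess normalization, 12 and 1 with read totals and 2 and 9 with 5 to 50 RPKM scaling. Only 3 fell without wild-type replicate 2 or 3 or morphant replicate 2. Globin genes are close copies of one another, and reads between them may be shared.

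In the skin, 13 of 62 epidermal genes rose and 1 fell (median 0.50, above 0 under every scaling). *zgc:113413*, now *aep1*, had 67.7, 74.8 and 67.8 RPKM in morphants and 12.3, 12.2 and 9.44 RPKM in wild type (log2 fold change 2.63, SE 0.15, adjusted p = 0.000107). The epithelial adhesion gene *epcam* had 164, 168 and 148 RPKM in morphants and 46.9, 60.7 and 58.7 RPKM in wild type (log2 fold change 1.53, SE 0.13, adjusted p = 0.00051), and *ptgs2a*, a cyclooxygenase, had 13.3, 16.7 and 18.4 RPKM in morphants and 3.66, 4.34 and 4.71 RPKM in wild type (1.9, adjusted p = 0.00111). The epidermal count was 8 without morphant replicate 2 and with 5 to 50 RPKM scaling, and 23 with read totals. Ionocytes of the skin take up salts and excrete ammonia, and 8 of 27 of their genes, mucous cells included, rose and none fell (5 under loess, quantile or 5 to 50 RPKM scaling). These 8 include *rhag*, which is also on the erythrocyte list and is given above with the red cell genes. The cotransporter *slc12a10.2* had 5.77, 6.38 and 7.62 RPKM in morphants and 1.79, 1.42 and 0.669 RPKM in wild type (2.35, adjusted p = 0.0063), and the ammonia transporter *rhbg* had 25.1, 31.2 and 23.6 RPKM in morphants and 8.5, 5.5 and 9.25 RPKM in wild type (1.79, adjusted p = 0.00191).

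Of 122 cell division genes 22 rose and none fell (median 0.38). The nucleosome-binding *hmgn2* (ENSDARG00000093817) had 378, 470.1 and 404 RPKM in morphants, against 55.5, 61.2 and 72.2 RPKM in wild type (log2 fold change 2.73, SE 0.14, adjusted p = 0.000101), the largest rise in level on the list. Cyclin D1, *ccnd1*, rose by 1.66, the proliferation marker *mki67* by 1.36 and the mitotic kinase *cdk1* by 1.17. The count was 13 without morphant replicate 2, between 10 and 13 under the median-of-ratios, quantile, loess and 5 to 50 RPKM scalings and 36 with read totals.

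Of 62 neuronal genes 5 rose and 12 fell (median −0.46, below 0 under every scaling). *pvalb6*, a parvalbumin, had 5.7, 3.59 and 4.12 RPKM in morphants and 19.6, 25 and 23.3 RPKM in wild type (log2 fold change −2.33, SE 0.21, adjusted p = 0.000661), and the synaptic vesicle gene *vamp1* had 7.09, 6.03 and 5.19 RPKM in morphants and 15.6, 17.3 and 17.5 RPKM in wild type (−1.45, adjusted p = 0.00176). *stmn1b*, a stathmin of young axons, had 86.1, 114 and 86.6 RPKM in morphants and 26.2, 39 and 41.1 RPKM in wild type (1.45, adjusted p = 0.00275). With read totals the order turned, with 6 neuronal genes higher and 2 lower, while falls were called in 19 to 21 with the quantile, loess and 5 to 50 RPKM scalings. Rises were called in 1 without morphant replicate 2, in 2 without wild-type replicate 1 or 2 or morphant replicate 3 and in 3 without morphant replicate 1. Among 76 progenitor genes 6 rose and 1 fell, no larger a share of rises than the 8.4% of all genes. With loess normalization or 5 to 50 RPKM scaling 4 rose and 5 fell, with read totals 17 rose and 1 fell, and without morphant replicate 2 only 2 rose. *nhlh2*, a bHLH factor of newborn neurons, had 20.4, 23 and 23.1 RPKM in morphants and 1.67, 4.74 and 4.61 RPKM in wild type (log2 fold change 2.69, SE 0.37, adjusted p = 0.00277), and the Notch ligand *dlb* rose by 1.43. The fall was in *rx1*, the homeobox gene of retinal progenitors and photoreceptors, with 1.26, 2.03 and 2.1 RPKM in morphants and 8.14, 5.18 and 8.06 RPKM in wild type (−1.93, adjusted p = 0.00624).

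The remaining lists are read against the 8.4% of all genes that rose and the 3.42% that fell. Genes of the extracellular matrix had 11 rises and 2 falls among 90, endothelium 6 and 0 among 45, pigment cells 5 and 0 among 49, hedgehog, Wnt and FGF signalling 6 and 1 among 70, the circadian clock 4 and 0 among 34 and the pronephros 4 and 1 among 31. Glia had 2 rises and 1 fall among 22, cartilage and bone 2 and 2 among 43, the inner ear and lateral line 2 and 1 among 25, the heart 2 and 3 among 21, pituitary and hypothalamus 0 and 2 among 14 and the respiratory chain encoded in the nucleus 1 and 1 among 85. Pigment cells gave 3 rises without wild-type replicate 2 or morphant replicate 1 or 2, and 2 rises with 4 to 8 falls under the quantile, loess, median-of-ratios and 5 to 50 RPKM scalings, under which 5 to 7 matrix genes rose. In the heart no gene was called in either direction without morphant replicate 1 or 2, no fall without wild-type replicate 1 or with read totals, and 6 falls with 5 to 50 RPKM scaling. The fall in the respiratory chain was joined by others to make 6 with median-of-ratios scaling, 14 with 5 to 50 RPKM scaling and 4 without wild-type replicate 1, and its rise was lost in 5 of the 6 omissions of a library. Over the same scalings and omissions the rises ranged from 3 to 19 in signalling, from 3 to 11 in endothelium, from 2 to 7 in the clock, from 3 to 8 in the pronephros, from 1 to 6 in glia and from 0 to 4 in the inner ear and lateral line. Some genes of these lists that held under all alternatives are given here, and others of the lists held as well. *gch2*, which makes the pteridine precursors of pigment cells, had 99.2, 132 and 107 RPKM in morphants and 21.9, 21.5 and 20.6 RPKM in wild type (log2 fold change 2.38, SE 0.13, adjusted p = 0.000107). *hapln1a*, a link protein of the hyaluronan matrix, had 60.6, 74.1 and 61.8 RPKM in morphants and 22.7, 25.9 and 26.9 RPKM in wild type (1.37, adjusted p = 0.000782). *klf6a*, a zinc finger factor on the endothelial list, had 21.2, 21.9 and 19.9 RPKM in morphants and 5.31, 5.75 and 7.84 RPKM in wild type (1.74, adjusted p = 0.00115). All 3 were higher in every morphant pool than in any wild-type pool. The ligand *wnt4b* had 1.51, 2.35 and 2.24 RPKM in morphants and 5.98, 6.89 and 7.62 RPKM in wild type (−1.72, adjusted p = 0.00562), while *wnt9b* (1.61), the receptor *fgfr4* (1.54) and the Hedgehog coreceptor *gas1a* (1.48) rose.

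Lists of the cilium itself are read against the 8.4% of all genes that rose and the 3.42% that fell. Of 34 genes of the transition zone, BBSome and satellites 2 rose and 2 fell (5.88% each). Of 28 of intraflagellar transport 1 rose (3.57%) and none fell. Of 88 motile cilia genes found, 75 were below 2 RPKM. None of the 13 tested was called (1 rose and 1 fell without wild-type replicate 1). With so few genes tested, these counts set the lists neither above nor below all genes. Apart from *cep290* itself, the called genes were *tmem237a* (−2.69), *cep89* (−1.45), *rab8b* (1.43) and *ift27* (1.29). None of these 4 kept its call when each library was left out: *tmem237a* lost it without wild-type replicate 1 or 2 or morphant replicate 2, *cep89* without any 1 morphant library, *rab8b* without morphant replicate 1 or 2, and *ift27* without wild-type replicate 1 or 2 or morphant replicate 1 or 3. The most abundant motile cilia gene, *cetn4*, had 14.1, 13.7 and 13.4 RPKM in morphants and 7.88, 9.11 and 19.2 RPKM in wild type (0.30, adjusted p = 0.526), and the ciliogenesis factor *rfx2* had 5.92, 3.66 and 5.15 RPKM in morphants and 5.84, 8.3 and 6.28 RPKM in wild type (−0.47, adjusted p = 0.225). Both overlapped.

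**Figure D4:**
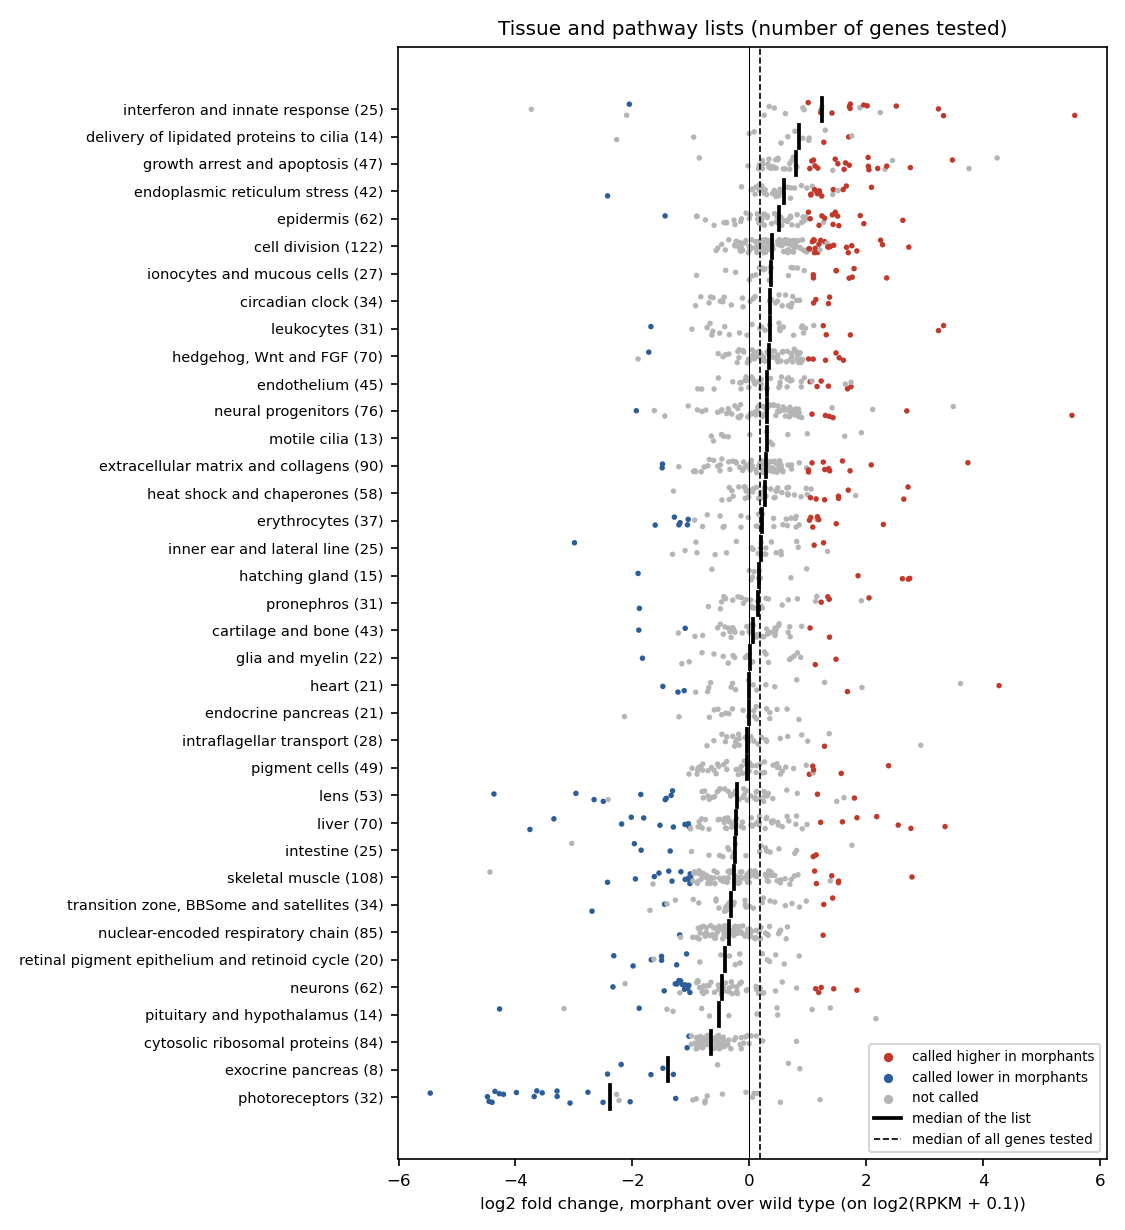
Log2 fold change of morphants over wild type (x axis) for every tested gene (points) of 37 tissue and pathway lists, with the number tested in brackets, in red where the gene rose, blue where it fell and grey where it was not called; heavy bars are list medians and the dashed line is the median of all genes (0.18). The photoreceptor list lies farthest left (median −2.39) and the innate response list farthest right (1.24), next to lipidated protein delivery (0.85) and growth arrest and apoptosis (0.80).

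Among called genes, the largest losses in absolute level were in the most abundant transcripts, where wild-type reads were also most concentrated. *mt-atp6*, a mitochondrial subunit of ATP synthase, had 11793, 9189 and 12716 RPKM in morphants and 22209, 26603 and 26567 RPKM in wild type (log2 fold change −1.17, SE 0.32, adjusted p = 0.0344). The α-globin *hbae3* had 5271, 4001 and 5858 RPKM in morphants and 8355, 11071 and 11726 RPKM in wild type (−1.04, adjusted p = 0.0291). The ribosomal protein genes *rps25* (−1.06) and *rps29* (−1.03) and the translationally controlled *tpt1* (−1.06) came next. Groups did not overlap in any of the 5, yet their calls were fragile. *mt-atp6* was called in 7 of 21 alternatives, had an adjusted p between 0.0715 and 0.331 with a library left out, and stood at 0.09 after quantile normalization. *hbae3* lost its call without any 1 library (adjusted p between 0.0614 and 0.211), and *rps25*, *rps29* and *tpt1* with read totals, quantile and loess normalization and without wild-type replicate 2 or 3 or morphant replicate 2, at adjusted p up to 0.0871, 0.112 and 0.0617. Over all 84 cytosolic ribosomal proteins only *rps25* and *rps29* fell and none rose, 65 were lower with no overlap (13.4% of all genes were), and the median was −0.66. No fall was called and the median became −0.12 after quantile or loess normalization, while 17 fell with median-of-ratios scaling (median −0.85) and 33 with 5 to 50 RPKM scaling (median −0.97). With a library left out 10 fell without wild-type replicate 1, 6 without morphant replicate 3, 1 without morphant replicate 1 and none without wild-type replicate 2 or 3 or morphant replicate 2.

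Most of the largest fitted rises rested on few reads in wild type. Of the 20 with the largest fold changes, 13 had a wild-type library without a read, and only *ccng1*, *cfb*, *rasd1* and *mmp9* kept their call under every alternative. Each of the other 16 lost its call in 2 or more of the 6 omissions of a library, and the omission named below is the one with the highest adjusted p. *rasd1*, a Ras-related GTPase, had 26.4, 34.7 and 30.9 RPKM in morphants and 1.41, 3.76 and 4.59 RPKM in wild type (log2 fold change 3.34, SE 0.39, adjusted p = 0.00147). *her4.1*, a Notch target of neural progenitors, had 7.19, 2.96 and 4.24 RPKM in morphants, against no read in any wild-type library, at least 7.84-fold higher with 3 reads per library as the floor. *HIST1H4A (2 of 3)*, a histone H4 entry, had 13.6, 6.35 and 1.99 RPKM in morphants, likewise against no read, at least 3.87-fold higher. Without morphant replicate 1 the adjusted p of this pair became 0.2 and 0.202. Mutants had *her4.1* at 6.87, 5.5 and 5.4 RPKM and the histone entry at 1.84, 3.43 and 2.32 RPKM, so wild type alone was without reads for both. *ASCC1* (4.8, adjusted p 0.22) and *tspan33* (4.52, 0.137) lost their calls without wild-type replicate 2. With wild-type libraries at 0 their fitted changes, 27.9-fold and 22.9-fold, exceeded their ratios of group means, 5.85 and 9.15. *ARF4 (3 of 3)*, with 3 reads in all of wild type, had a read ratio of 16.4 with a counting interval of 5.49 to 80.9, and an adjusted p of 0.162 without morphant replicate 3. *cnpy2*, *cbx7a*, *tnw*, *igfbp6b*, *tnni1al*, *ugt5a5* and *FBXL6* lost their calls without morphant replicate 2, and *MPEG1 (1 of 3)* without morphant replicate 3.

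The largest named falls were steadier when a library was left out. Of those 20, 7 were photoreceptor genes, 13 had a morphant library at 0 and 14 were called whichever library was left out. *npy8ar*, a neuropeptide Y receptor, had no read in morphants and 4.17, 6.05 and 5.54 RPKM in wild type, at least 10.4-fold lower. *cbln9* of the cerebellin family was at least 11.8-fold lower, *cplx4b*, a complexin of ribbon synapses, at least 6.3-fold and *AMZ2 (2 of 2)* at least 6.05-fold, all with no read in morphants. Morphants and mutants differed by at most 0.08 on the log2 scale for *cplx4b* and *AMZ2 (2 of 2)* over 12 alternatives. Both genes were thus all but unread in mutants too, and stood out in wild type alone. *SUGCT (1 of 2)*, with 1 read in all of the morphant libraries, had a ratio of wild-type over morphant reads of 56.4, with a counting interval of 9.2 to 2320. The hypothalamic hormone gene *oxt* had 0.133, 0.752 and 0 RPKM in morphants and 3.55, 5.31 and 7.12 RPKM in wild type (log2 fold change −4.27, SE 0.86, adjusted p = 0.0123), and missed the threshold without wild-type replicate 2 (adjusted p = 0.0584). *HTR4*, *phlpp2*, *baiap2l2*, *il21rl* and *ighv11-1* also missed it with 1 library left out, at adjusted p up to 0.109, and these 6 lost their calls after loess normalization too. *cbln9*, *cplx4b* and *GPR137B (1 of 2)* (−4.19) missed the threshold after loess normalization only, at adjusted p of 0.0582, 0.0564 and 0.0692.

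To set the morphant beside a genetic loss, the named genes were tested between morphants and *MZcep290*-/- mutants in a fit of all 9 libraries, in which 3.61% of genes were higher and 2.69% lower in morphants. Both groups are compared with the same wild-type libraries elsewhere, so the 2 changes against wild type are not independent, and the difference between morphants and mutants is the test. Mutant libraries were deeper than morphant ones, with 18662115 to 21299112 reads on genes. Their 50 most-read genes took a smaller share of reads, 21.3% to 22%. The part of these differences in the results below, list counts included, was not tested beyond the other scalings given. The 7 photoreceptor genes plotted, which had the largest falls of their list in morphants, were low in both groups. Over the whole list the median log2 fold change against wild type was −1.38 in mutants and −2.39 in morphants. Not every gene of the list was low in mutants, as *unc119b* below shows. *gnat2* had 0.895, 1.91 and 1.48 RPKM in morphants and 1.23, 1.36 and 1.22 RPKM in mutants, a log2 difference of 0.10, with a 95% interval of −0.49 to 0.69 (adjusted p = 0.851). *opn1sw1* had 7.49, 11 and 3.49 RPKM in morphants and 5.64, 5.94 and 6.46 RPKM in mutants, a difference of 0.14, with a 95% interval of −0.61 to 0.88 (adjusted p = 0.838). For *pde6c* the difference was −1.01, with a 95% interval of −1.89 to −0.13 (adjusted p = 0.106) and for *gngt2b* −0.79, with a 95% interval of −1.25 to −0.32 (adjusted p = 0.0251), the second being within 2-fold. None of the 7 photoreceptor genes plotted was called between these groups, which does not show their levels to be equal. *pde6c* was called when only the 6 libraries compared were fitted (adjusted p = 0.0057), and *prph2b* without morphant replicate 1 (−2.26, adjusted p = 0.0234).

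Some stress, hatching gland, globin and muscle genes differed between morphants and mutants, and those given here as called, with the lens genes, *unc119b* and *cep290* below, were called in all 12 alternatives. *ccng1* had 782, 872 and 829.5 RPKM in morphants and 224, 235 and 234 RPKM in mutants, a log2 difference of 1.84, with a 95% interval of 1.64 to 2.04 (adjusted p = 6.72e-06), so both groups lay above wild type and morphants furthest. *mmp9* had 39.1, 34.4 and 37.9 RPKM in morphants and 2.1, 2.43 and 2.56 RPKM in mutants, a difference of 3.92, with a 95% interval of 3.61 to 4.23 (adjusted p = 7.34e-07), with mutant values below those of wild type. The same order held for *he1b*, with 154, 171 and 208 RPKM in morphants and 14.9, 17 and 15.9 RPKM in mutants, a difference of 3.46, with a 95% interval of 3.2 to 3.72 (adjusted p = 6.87e-07). It held for *he1a* (difference 3.22, 95% interval 2.86 to 3.58, adjusted p = 6.72e-06), *ctsla* (difference 1.79, 95% interval 1.51 to 2.07, adjusted p = 5.50e-05) and *mmp13a* (difference 2.69, 95% interval 2.19 to 3.19, adjusted p = 0.000138) also. *hbbe3* had 232, 228 and 269.5 RPKM in morphants and 21.5, 22.2 and 17.1 RPKM in mutants, a difference of 3.58, with a 95% interval of 2.84 to 4.32 (adjusted p = 0.000223). The other globins named above were not called, at 0.18, 95% interval −0.12 to 0.48, adjusted p = 0.407 for *hbbe1.1*, 0.10, 95% interval −0.16 to 0.37, adjusted p = 0.616 for *hbbe2* and 0.72, 95% interval 0.28 to 1.16, adjusted p = 0.0308 for *hbae3*. Nor were the stress genes *isg20* (0.43, 95% interval −0.04 to 0.89, adjusted p = 0.189), *vimp* (−0.28, 95% interval −0.67 to 0.11, adjusted p = 0.31) and *ppp1r15a* (0.17, 95% interval −0.44 to 0.79, adjusted p = 0.736). *tcap* had 21, 20.3 and 24.3 RPKM in morphants and 8.47, 8.45 and 8.42 RPKM in mutants, a difference of 1.36, with a 95% interval of 1.03 to 1.68 (adjusted p = 0.000499).

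Lens genes, *unc119b* and *cep290* also differed between these groups. *crybb1* had 189, 136 and 169 RPKM in morphants and 646, 662 and 650.2 RPKM in mutants, a difference of −2.0, with a 95% interval of −2.31 to −1.69 (adjusted p = 5.50e-05), and *crybb1l1* had 114, 115 and 96.9 RPKM in morphants and 439, 418 and 416 RPKM in mutants, a difference of −1.97, with a 95% interval of −2.24 to −1.7 (adjusted p = 2.78e-05). *unc119b* had 5.65, 5.69 and 4.76 RPKM in morphants and 10.8, 12.4 and 12.4 RPKM in mutants, a difference of −1.13, with a 95% interval of −1.45 to −0.81 (adjusted p = 0.000953). For *arl3*, with 16.9, 15.4 and 15.4 RPKM in morphants and 21.9, 21.4 and 23.5 RPKM in mutants, the difference was not called (−0.49, 95% interval −1.12 to 0.14, adjusted p = 0.271). *cep290* was read at 5.45, 6.15 and 3.36 RPKM in morphants and 1.32, 1.14 and 1.29 RPKM in mutants, a difference of 1.88, with a 95% interval of 1.18 to 2.58 (adjusted p = 0.0032). Across lists, 6 of 47 growth arrest and apoptosis genes, 11 of 25 innate response genes, 7 of 15 hatching gland genes, 29 of 108 skeletal muscle genes, 19 of 84 cytosolic ribosomal proteins, 13 of 70 liver genes, 9 of 62 epidermal genes and 6 of 31 leukocyte genes were higher in morphants than in mutants, against 3.61% of all genes. After loess normalization these counts were 3, 10, 5, 11, 1, 5, 6 and 5, in the same order of lists. Ribosomal protein genes gave 7 with median-of-ratios scaling or without morphant replicate 3, 11 without morphant replicate 1 and 32 without morphant replicate 2, and growth arrest and apoptosis genes 3 with median-of-ratios scaling or without morphant replicate 3. Lower in morphants were 10 of 53 lens genes, 32 of 62 neuronal genes and 6 of 32 photoreceptor genes, against 2.69% of all genes. These 6 were *gngt2a*, *tulp1a*, *crx*, *six7*, *thrb* and *unc119b*.

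**Figure D5:**
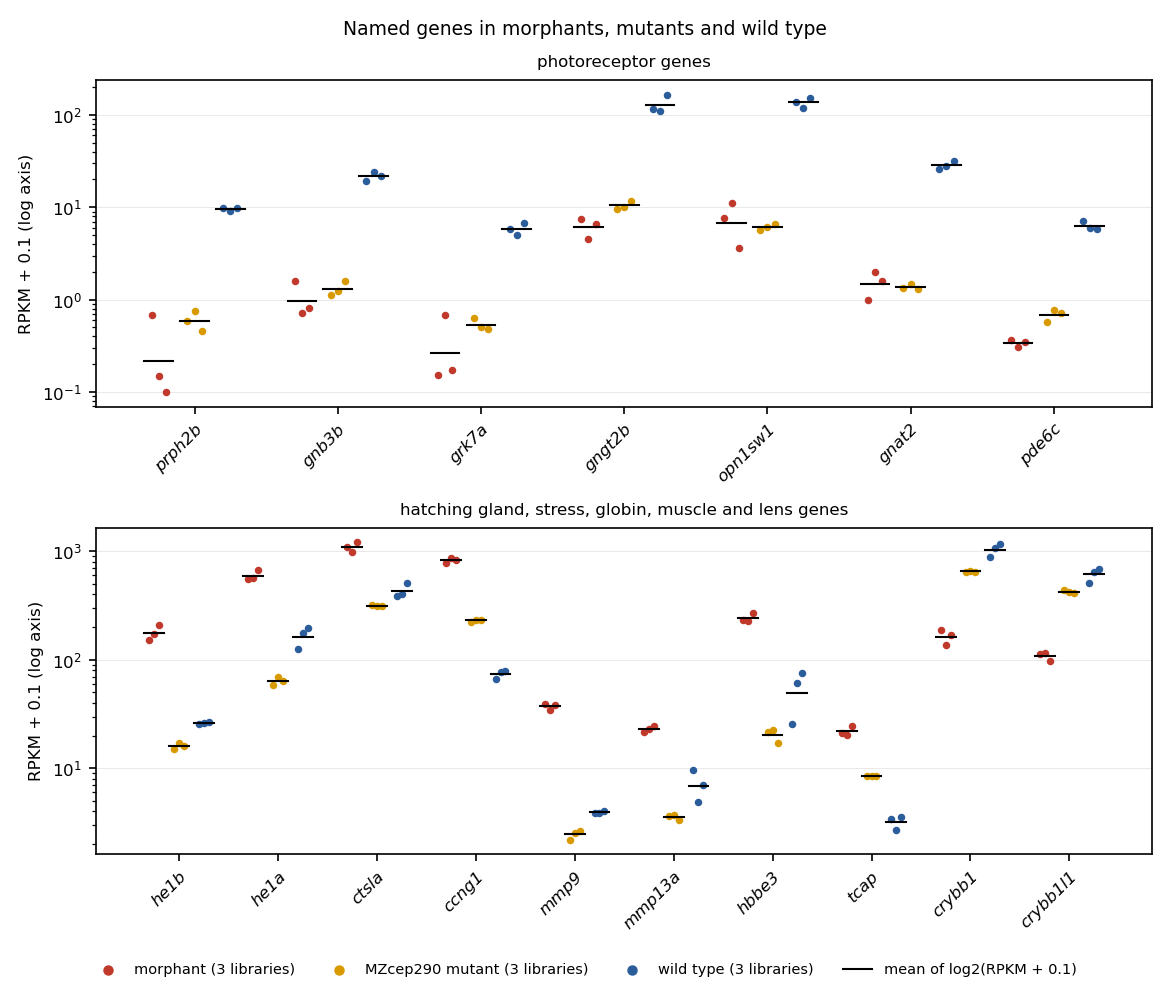
RPKM + 0.1 (log axis) in 3 morphant libraries (red), 3 *MZcep290*-/- libraries (yellow) and 3 wild-type libraries (blue), with a bar at the mean of log2(RPKM + 0.1), for 7 photoreceptor genes (top) and genes of other groups (bottom). Morphants and mutants are both far below wild type in *gnat2* and *opn1sw1*, while for *he1b*, *he1a*, *mmp9* and *hbbe3* morphants lie above both other groups and for *crybb1* and *crybb1l1* below both.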

How the data were processed

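RNA from whole embryos was selected for polyA, made into directional libraries and sequenced as single-end reads. As the study's methods and the submitters' processing notes state, the authors used STAR for alignment to Zv9, HTSeq for counting and edgeR for testing; versions, the annotation release and counting options are not given in the sources used here. The values the authors deposited are RPKM, relative to a normalized library size. Multiplied by gene length they gave whole reads in 100% of values (tolerance 0.01), from which depth was recovered. Reads are not independent molecules, so floors (3 reads) and counting intervals cover counting error only.

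Genes reaching 2 RPKM in the mean over the 6 libraries were tested on log2(RPKM + 0.1) with limma 3.58.1 (mean-variance trend) in R 4.3.3. The added 0.1 shrinks the fold change of low genes, but a library at 0 can enlarge it. *cxcl-c1c*, with wild-type libraries at 0, was fitted at 47.5-fold, against a ratio of group means of 10.8. A call required an adjusted p (Benjamini-Hochberg over all 14580 genes) under 0.05 and more than 2-fold. The edgeR and DESeq2 tests, which need counts, were not run; voom on recovered reads was an alternative. The step was tested on simulated data. Python 3.11.15, pandas 2.3.3, scipy 1.17.1 and matplotlib 3.10.9 made tables and figures.

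The text names the 20 largest rises and 20 largest falls among called genes that did not overlap and carry a gene name, the 5 largest increases and decreases in mean RPKM, *cep290*, *arl3*, *arl13b* and *unc119b*, and up to 4 called genes of each of 37 lists (2 abundant ones where none was called). Other called genes of the photoreceptor, growth arrest and apoptosis, and innate response lists are also given, and uncalled members after their values were seen. Some results are not reported here on their own, although they are included in the counts of their list. Members and lists were chosen with earlier results of these data known. Names are those of the table, and 21939 identifiers (65.0%) were paired with a current symbol. The reference tables used here are of another build than Zv9, so no coordinates are given.

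Alternatives were other pseudocounts, filters and scalings, group weights, no trend, all 9 libraries, a replicate block and leaving out each library.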

Additional observations from a re-analysis of the deposited data

How the results depend on the processing

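Every morphant library was deeper than every wild-type library, and low wild-type values limit each fold change near the floor of 3 reads. Counts of genes that rose and fell (1224 and 498) depended most on scaling and on the filter. They were 753 and 734 with median-of-ratios scaling, 2453 and 291 with read totals as library sizes, 550 and 1002 with scaling on genes of mean 5 to 50 RPKM, 726 and 519 with quantile and 690 and 548 with cyclic loess normalization. Without a filter 1214 rose and 1974 fell among 27282 genes, with at least 0.5 RPKM in 3 libraries 1291 and 2348, and above a mean of 10 RPKM 538 and 128. With voom on recovered reads 1478 rose and 760 fell. Leaving out 1 library gave 622 to 1178 rises and 248 to 408 falls. A replicate block gave 1166 rises and 400 falls. Same-numbered libraries deviated with correlations of 0.005, −0.031 and 0.030, and 1 of 3 correlated best with its own number, so the numbers did not pair the libraries. Pseudocounts of 1 and 0.01, group weights, a fit of all 9 libraries and a fit without trend kept both counts within 1.5 times. For named genes, 3258 values were computed under alternatives: 2835 kept direction and call, 418 lost the call (234 of them with a library left out), 4 gained it and 1, *mt-atp6* after quantile normalization, reversed, to 0.087 (adjusted p = 0.594). Of 153 named genes that were called, 77 kept their call under every alternative. Alternatives for morphants against mutants were chosen after the data were seen.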

Other observations

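Short RNA genes were singled out here after their values were seen. Of 538 tested genes under 200 bases long, 28 fell (5.2%) and 5 rose (0.929%), against 3.42% and 8.4% of all genes. Their median log2 fold change was −2.46, against 0.20 over the 14042 longer genes. On genes this short a few reads can bring the mean to 2 RPKM. A read is worth more RPKM in the less deep wild-type libraries, so such genes pass more readily through wild type. The part of this filter in the median was not tested, and the median is not read as a fall of these genes. Reads on all of them summed to 23188, 21526 and 13363 in morphants and 11945, 12084 and 13221 in wild type. The short genes included 301 copies of 5S rRNA, an RNA of the large ribosomal subunit. Of these copies 13 fell (4.32%, near the 3.42% of all genes) and none rose. Reads on these copies summed to 78, 169 and 111 in morphants, against 1533, 1207 and 683 in wild type, although wild-type libraries had fewer reads in all. The copies are near-identical and share reads, so they do not count as separate genes. The libraries were selected for polyA, and the part of library preparation in this difference was not tested. Short genes gave 19 of the 41 genes that fell and had no morphant read, and 21 of the 102 falls over 8-fold. Among genes of 200 bases or longer 1219 rose and 470 fell.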
